A study of Homo sapiens with 6 samples.

Results

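The BCL2 family decides whether a cell commits to apoptosis at the mitochondrial outer membrane. The 10 genes described here were chosen by name, with earlier results of these data known. All 10 are among the 30015 genes of the deposited table. They comprise 4 pro-survival genes (BCL2, BCL2L1, MCL1 and BCL2A1), 5 genes of BH3-only proteins (BCL2L11, PMAIP1, BID, BMF and BIK) and the effector gene BAK1. RNA-seq was run on HMV-II, an established human line from a vaginal mucosal melanoma, in 3 Vector and 3 shEZH2 libraries. The Vector cells are labelled wild type and the deposited table heads them shNC, for the scrambled control shRNA. The shEZH2 cells carry an EZH2 knockdown, headed sh1, and no further treatment is given for either group. Both groups were made with lentivirus and selected with puromycin as stable cell lines. A single knockdown group was sequenced, so an effect of its shRNA other than on EZH2 cannot be told apart from the loss of EZH2. Nothing in the labels says that the replicates are separate cultures, so the p-values measure the spread between these libraries, which may be technical.

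Pro-survival BCL2 proteins hold the effectors BAK and BAX in check by binding a short helix, the BH3 domain. BH3-only proteins are released or induced under stress and occupy that groove or activate the effectors, which then permeabilise the outer membrane and free cytochrome c. Melanoma cells are known to rely on MCL1 and BCL2L1, and BCL2 and BCL2A1 are known targets of the melanocyte factor MITF. EZH2 is the catalytic subunit of the Polycomb complex PRC2, which places a repressive methyl mark on histones.

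Values are normalised read counts, that is reads counted per gene divided by 1 size factor per library. Depth was 13400290 to 15923029 counted reads in Vector and 16129171 to 19128939 in shEZH2 libraries. The knockdown was seen in every library. EZH2 had 483, 437 and 552 normalised read counts in Vector replicates 1, 2 and 3 against 237, 247 and 225 in shEZH2 replicates 1, 2 and 3, a log2 fold change of -1.04 (SE 0.14, limma adjusted p = 0.0142). With 1 library left out, its adjusted p was over 0.05 in 5 of 6 fits, up to 0.128. All 8 melanocyte lineage markers (MITF, SOX10, MLANA, PMEL, TYR, TYRP1, DCT and S100B) were expressed, the lowest value being 197 for MLANA in Vector replicate 2. Of 7 markers of other cell types, the 5 listed (PTPRC, PECAM1, COL1A1, KRT14 and EPCAM) summed to between 14.0 and 30.5 normalised read counts per library. Vector replicate 2 stood apart. Relative to the mean of Vector replicates 1 and 3, its median log2 deviation was -0.54 over the quintile of shortest genes and 0.42 over that of the longest. Gene length throughout is the value the deposited table lists, which for every member is less than the span of its positions. Results for the members are therefore given with and without it. In these bulk libraries, a change in the share of cells that express a gene and a change in RNA per cell cannot be told apart.

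With EZH2 knockdown, the pro-survival gene BCL2L1 was higher and the BH3-only gene BMF was lower. These were the only members that passed the threshold of the study's methods, which asks for a raw p under 0.05 and a change of at least 0.585 on the log2 scale, here in a limma fit over 15251 genes. The counts of 1 higher and 1 lower member of 10 compare with 7.55% of all genes tested called higher and 7.07% called lower. Both genes also had an adjusted p under 0.05, which 4.12% of all genes had. Every member passed the minimum mean of 10 normalised read counts. The median log2 fold change over the 10 members was -0.03, beside 0.04 over all genes tested. Vector and shEZH2 libraries were fully separated for 3 members, BCL2L1, BMF and BCL2L11, against 34.8% of all genes tested.

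BCL2L1 (ENSG00000171552), whose main product BCL-xL restrains BAK and BAX, spans positions 31664452 to 31723989 of chromosome 20 (GRCh38, the build of every position given here, minus strand). It had 593, 437 and 667 normalised read counts in Vector replicates 1, 2 and 3 against 1384, 1118 and 1294 in shEZH2 replicates 1, 2 and 3. Every shEZH2 library lay above every Vector library, and the lowest shEZH2 value exceeded the highest Vector value by more than the range of the Vector group. The means were 565 ± 118 (SD, n = 3) and 1265 ± 135 (SD, n = 3). BCL2L1 rose with a log2 fold change of 1.18 (SE 0.19, limma adjusted p = 0.0212), or 2.26-fold with a 95% interval of 1.67 to 3.06. With 3 libraries against 3, the exact permutation test (two-sided, 20 arrangements) cannot go below p = 0.1, which was the value here. A larger change in size was fitted for 3.89% of all genes tested. Without Vector replicate 2, the lowest of the 6 libraries for this gene, the log2 fold change was 1.00 (adjusted p = 0.000117). BCL2L1 encodes a long and a short splice form with opposite roles, and gene-level counts do not separate them. The antisense genes ABALON and AL117381.1 overlap it on the other strand, with means of 8.30 and 2.58 normalised read counts.

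BMF (ENSG00000104081), a BH3-only protein known for its tie to the actin cytoskeleton through dynein light chains, spans positions 40087890 to 40108892 of chromosome 15, minus strand. It had 562, 544 and 594 normalised read counts in Vector replicates 1, 2 and 3 against 367, 351 and 342 in shEZH2 replicates 1, 2 and 3. The 2 groups were far apart for their narrow spread, with means of 566 ± 25.3 and 353 ± 12.5 (SD, n = 3 each). BMF fell with a log2 fold change of -0.68 (SE 0.12, limma adjusted p = 0.0306), to 0.625 of the Vector level with a 95% interval of 0.511 to 0.764. The exact two-sided permutation p was again 0.1. Vector replicate 2 deviated from the other Vector libraries by -0.09 on the log2 scale, and leaving it out gave a log2 fold change of -0.71 (adjusted p = 0.00120). A larger change in size was fitted for 17.7% of all genes tested. When a single library was omitted, BCL2L1 had an adjusted p over 0.05 in 4 of 6 fits (those without Vector replicate 1 or one of the shEZH2 libraries), up to 0.145, and that of BMF in each of the leave-one-out fits except the one without Vector replicate 2, up to 0.196. Both genes passed the unadjusted threshold in each of the 16 alternatives run.

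**Figure D1:**
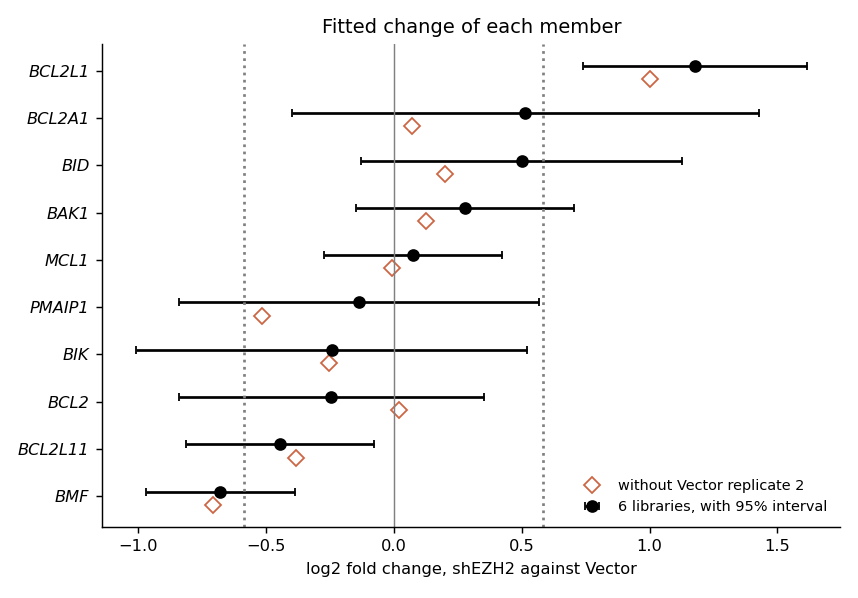
Fitted log2 fold change of shEZH2 against Vector for each of the 10 genes, with its 95% interval from limma over 6 libraries (black) and the value without Vector replicate 2 (open diamonds). Dotted lines mark the fold change threshold. BCL2L1 at 1.18 and BMF at -0.68 lie beyond it with intervals clear of 0, and the interval of BCL2L11 is also clear of 0 but its value of -0.45 is inside.

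The 250 bases upstream of a RefSeq start of each of the 2 genes that passed the threshold are shown. Whether they regulate either gene in these cells was not tested. They are RefSeq sequences on GRCh38.p14, 5′ to 3′ on the gene's strand, at the RefSeq start nearest to the gene's boundary in the deposited table. The BCL2L1 window lies at chr20:31723964-31724213 and the BMF window at chr15:40108880-40109129, both on the minus strand. Capitals mark the motifs found. Both strands were searched for the GC box GGGCGG and the TATA box TATAAA. The E-boxes of the kind MITF binds were searched as CACGTG or as the variant CATGTG. The E2F motif was searched as TTTGGCGC or as the variant TTTCGCGC, and the ATF4 motif as TGATGNAAT.
BCL2L1: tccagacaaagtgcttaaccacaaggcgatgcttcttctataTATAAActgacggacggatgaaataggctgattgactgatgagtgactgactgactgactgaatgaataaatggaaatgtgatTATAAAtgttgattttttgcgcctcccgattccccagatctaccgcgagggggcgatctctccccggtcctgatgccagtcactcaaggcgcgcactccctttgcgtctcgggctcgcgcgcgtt
BMF: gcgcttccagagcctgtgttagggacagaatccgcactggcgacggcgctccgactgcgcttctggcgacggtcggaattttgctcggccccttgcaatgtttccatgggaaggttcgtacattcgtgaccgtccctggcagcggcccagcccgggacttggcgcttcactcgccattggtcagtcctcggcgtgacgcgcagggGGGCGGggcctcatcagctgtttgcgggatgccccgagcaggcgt
The 26 and 13 bases next to these starts lie inside BCL2L1 and BMF as the table bounds them. The BCL2L1 window held TATAAA 2 times, beginning at positions -208 and -125 from the start, and GC made up 50% of its bases. The BMF window held 1 GGGCGG, at position -45, with 65.2% GC. Of 35116 promoters of the same length, 42.6% held GGGCGG, 10.7% TATAAA, 9.42% CATGTG, 6.34% CACGTG, 0.888% TGATGNAAT, 0.550% TTTGGCGC and 0.439% TTTCGCGC. CpG dinucleotides numbered 17 and 26 in the windows of BCL2L1 and BMF, an observed to expected ratio of 1.09 and 0.980 against a median of 0.558 over all promoters. RefSeq has a further start for each gene, 1121 and 1926 bases from the table's boundary, and which start these cells use was not measured. Among the windows at the nearest start of the 8 members matched, CATGTG was found in those of BCL2A1 and BID and CACGTG in none, BCL2 included. BID has further RefSeq starts. A single CACGTG lay where the windows at its starts 17773983 and 17774042 overlap, at position -106 from the former and -47 from the latter. The other BID windows held none. These matches are letters in a window and were not tested as binding sites.

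The other 3 pro-survival genes did not pass the threshold. MCL1 (ENSG00000143384), a short-lived protein that holds BAK and binds NOXA, lies on chromosome 1 from 150574551 to 150579738 (minus strand). It had 12743, 10885 and 12970.4 normalised read counts in Vector replicates 1, 2 and 3 against 12113, 13296 and 13042 in shEZH2 replicates 1, 2 and 3. The groups overlapped. Its log2 fold change was 0.07 (SE 0.15, limma adjusted p = 0.781) with a 95% interval of -0.27 to 0.42, so a change of MCL1 mRNA past the threshold in either direction lay outside the interval. Without Vector replicate 2 the value was -0.0056.

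BCL2 (ENSG00000171791), the founding member of the family, lies on chromosome 18 from 63123346 to 63320128 (minus strand). It had 267, 446 and 246 normalised read counts in Vector replicates 1, 2 and 3 against 213, 275 and 299.8 in shEZH2 replicates 1, 2 and 3. Vector replicate 2 alone was high, and the other 2 Vector libraries fell within the shEZH2 range. The log2 fold change was -0.24 (95% interval -0.84 to 0.35, limma adjusted p = 0.578), and it was 0.022 without that library. BCL2 has the largest listed gene length of the 10 genes, 11765 bases, longer than 96.0% of the table. That value is far below the span of the positions given.

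BCL2A1 (ENSG00000140379), whose protein BFL-1 is known as a melanocyte lineage survival factor, lies on chromosome 15 from 79960889 to 79971446 (minus strand). It had 55.4, 21.0 and 52.9 normalised read counts in Vector replicates 1, 2 and 3 against 45.7, 67.1 and 60.1 in shEZH2 replicates 1, 2 and 3. The lowest value was again in Vector replicate 2, from 18 reads, and the other 5 libraries overlapped between groups. The fitted log2 change was 0.51 with a wide 95% interval of -0.40 to 1.43 (limma adjusted p = 0.450), and 0.07 without Vector replicate 2. MITF had 1386, 1640 and 1403 normalised read counts in the Vector replicates and 1452, 1920 and 1853 in the shEZH2 replicates, a log2 fold change of 0.23 (adjusted p = 0.403).

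The effector gene BAK1 (ENSG00000030110), whose product forms the pore in the outer membrane, lies on chromosome 6 from 33572547 to 33580293 (minus strand). It had 463, 325 and 433 normalised read counts in Vector replicates 1, 2 and 3 against 547, 425 and 502 in shEZH2 replicates 1, 2 and 3. The groups overlapped, since shEZH2 replicate 2 lay below both Vector replicates 1 and 3. For BAK1 the log2 fold change was 0.28 (95% interval -0.15 to 0.71, limma adjusted p = 0.385), and 0.13 without Vector replicate 2. BAX, the other effector, had 808, 279 and 793 normalised read counts in the Vector replicates and 912, 649 and 711 in the shEZH2 replicates, with a log2 fold change of 0.41 (adjusted p = 0.551) that was -0.09 without Vector replicate 2.

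The other 4 BH3-only genes did not pass the threshold over all 6 libraries, and BCL2L11 had the smallest p among them. BCL2L11 (ENSG00000153094) encodes BIM, which binds all the pro-survival proteins and activates BAX and BAK. It lies on chromosome 2 from 111119378 to 111168447 (plus strand). It had 166, 206 and 198 normalised read counts in Vector replicates 1, 2 and 3 against 132, 149 and 136 in shEZH2 replicates 1, 2 and 3. No shEZH2 library reached the lowest Vector library. The log2 fold change was -0.45 (SE 0.16, limma adjusted p = 0.153) with an unadjusted p of 0.0236, short of the threshold in size. The exact two-sided permutation p was 0.1. MIR4435-2HG overlaps the whole of BCL2L11 on the other strand, over 49070 bases, and had a mean of 1058 normalised read counts and a log2 fold change of -0.36 (adjusted p = 0.228). The strandedness of the libraries is not given in the sources used here, so reads from these 2 genes cannot be told apart where their exons overlap.

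PMAIP1 (ENSG00000141682) encodes NOXA, a stress-induced protein that binds MCL1 and BFL-1, and lies on chromosome 18 from 59899948 to 59904306 (plus strand). It had 1466, 643 and 1357 normalised read counts in Vector replicates 1, 2 and 3 against 954, 1066 and 944 in shEZH2 replicates 1, 2 and 3. Vector replicate 2 was the lowest of the 6 libraries and the other 2 Vector libraries the highest, so the shEZH2 values sat between them. The log2 fold change over all libraries was -0.14 (95% interval -0.84 to 0.57, limma adjusted p = 0.799). Without Vector replicate 2 it was -0.52 (SE 0.11, limma adjusted p = 0.00494), with no overlap between the groups, but still under the threshold in size. Which of these values describes the knockdown rests on 1 library.

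BID (ENSG00000015475) links death receptors to mitochondria once caspase-8 has cut its protein, and lies on chromosome 22 from 17734138 to 17774770 (minus strand). It had 456, 255 and 501 normalised read counts in Vector replicates 1, 2 and 3 against 648, 473 and 539 in shEZH2 replicates 1, 2 and 3. The shEZH2 range overlapped Vector replicate 3. For BID the log2 fold change was 0.50 (95% interval -0.13 to 1.13, limma adjusted p = 0.304), and 0.20 without Vector replicate 2. It passed the unadjusted threshold only without Vector replicate 3, at 0.69.

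BIK (ENSG00000100290), a BH3-only protein that resides largely at the endoplasmic reticulum, lies on chromosome 22 from 43110748 to 43129712 (plus strand). It had 20.9, 22.1 and 24.4 normalised read counts in Vector replicates 1, 2 and 3 against 23.8, 22.4 and 12.4 in shEZH2 replicates 1, 2 and 3, from 13 to 28 reads per library. Only shEZH2 replicate 3 stood below the rest. The fit gave a log2 fold change of -0.24 with a 95% interval of -1.01 to 0.52 (limma adjusted p = 0.668). BIK passed the threshold in 1 alternative, with array weights (log2 fold change -0.74, adjusted p = 0.0188), a fit in which 46.7% of all genes had an adjusted p under 0.05.

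**Figure D2:**
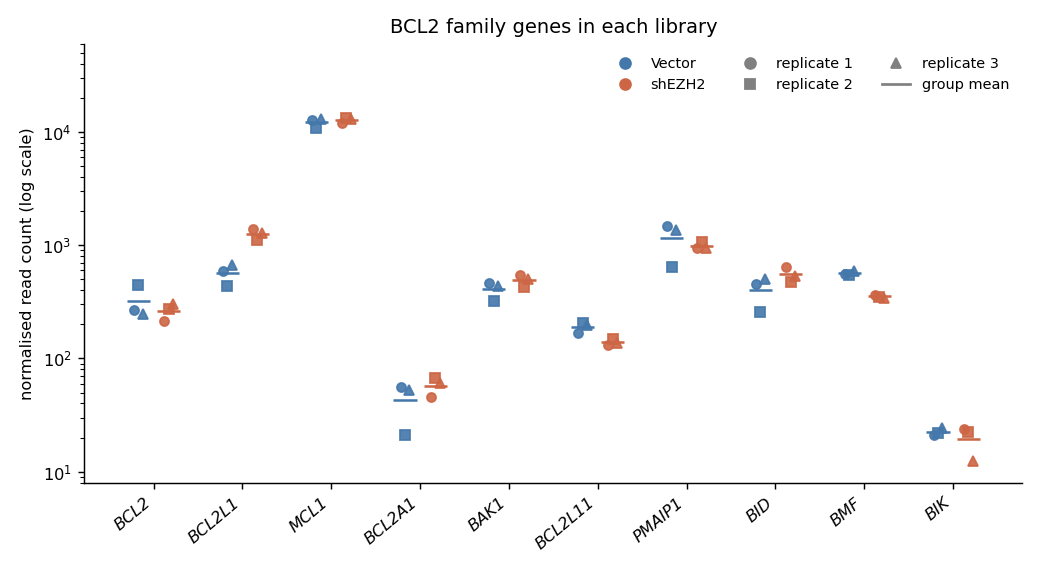
Normalised read counts of the 10 genes in each library on a log scale, with symbols for replicates and bars for group means. BCL2L1 and BMF are separated between Vector and shEZH2 cells. Vector replicate 2 (blue squares) is the highest or lowest library for 8 of the 10 genes, BCL2L1 among them. It lies furthest from the other Vector libraries for BCL2, BCL2A1, PMAIP1 and BID.

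Vector replicate 2 had the highest value for 2 members (BCL2 and BCL2L11) and the lowest for 6 (BCL2L1, MCL1, BCL2A1, PMAIP1, BID and BAK1). Its log2 deviation from the mean of the other Vector libraries ran from -1.33 for BCL2A1, with 1089 bases, to 0.80 for BCL2, with 11765 bases. PMAIP1, with 2235 bases, deviated by -1.13, and BID, with 4446 bases, by -0.90, further than the medians of -0.54 and -0.07 for all genes in their quintiles of length. BIK, the shortest by listed length at 953 bases, deviated by only -0.03. Across the 10 genes, which are not independent replicates, Spearman's rho between length and deviation was 0.54. The part of gene length in these deviations was not tested beyond removing the length trend from every library, after which the log2 fold changes of BCL2L1 and BMF were 1.03 and -0.71 and that of PMAIP1 was -0.35. Without Vector replicate 2, again 1 member was called higher (7.05% of all genes) and 1 lower (5.64%), and 3 members had an adjusted p under 0.05 (18.9% of all genes), namely BCL2L1, BMF and PMAIP1. That fit takes the Vector spread from 2 libraries that were closer to each other than any other pair within a group, with a mean chi-square per gene of 2.14 against 6.49 to 119 for the others.

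**Figure D3:**
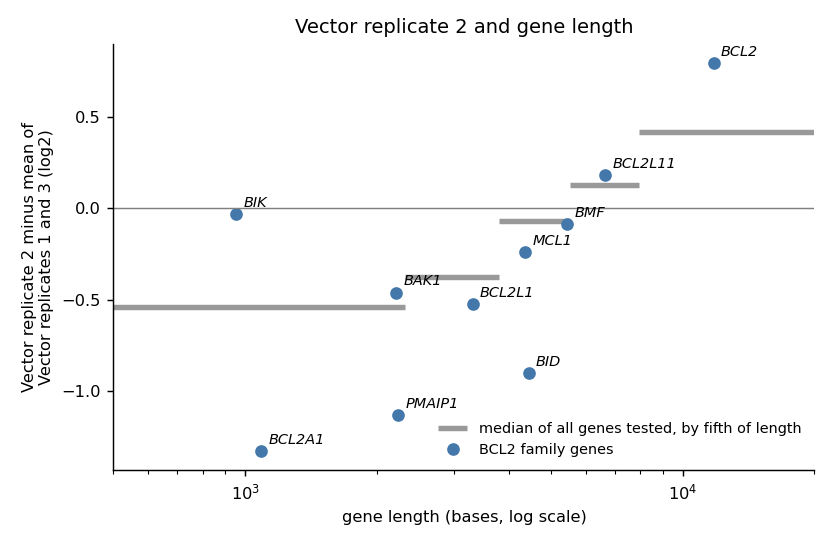
Deviation of Vector replicate 2 from the mean of Vector replicates 1 and 3 on the log2 scale, against the table's listed gene length on a log scale. Blue points are the 10 genes and grey bars the medians of all genes tested in quintiles of length (the outer bars are drawn only within the axis). BCL2 lies highest at 0.80 and BCL2A1 lowest at -1.33.

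To compare levels between genes, normalised read counts were divided by the listed gene length in kilobases. The length of the transcripts that these cells express was not measured. The order of the genes and their shares therefore depend on the listed lengths. MCL1 led in every library, with 2791 ± 262 per kilobase (SD, n = 3) in Vector and 2932 ± 143 in shEZH2 cells, followed by PMAIP1 with 517 ± 200.1 and 442 ± 30.3. In Vector cells the order then ran BAK1, BCL2L1, BMF, BID, BCL2A1, BCL2L11, BCL2 and BIK. The libraries of neighbours overlapped between BAK1 and BCL2L1, between BMF and BID, and along the run from BCL2A1 to BIK. In shEZH2 cells BCL2L1 followed PMAIP1, at 382 ± 40.9 per kilobase against 171 ± 35.5 in Vector cells, above BAK1 at 222 ± 27.9 with no overlap. BMF moved below BID, at 64.9 ± 2.30 against 125 ± 19.9, again with no overlap, and BCL2, BCL2L11 and BIK could not be ordered.

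As a share of the summed level per kilobase of the 10 genes, MCL1 took 68.0%, 74.9% and 68.7% in Vector replicates 1, 2 and 3 and 66.3%, 69.9% and 69.0% in the shEZH2 replicates. The share of BCL2L1 was 4.17%, 3.96% and 4.66% in Vector and 9.99%, 7.76% and 9.03% in shEZH2 libraries. That of BMF was 2.41%, 3.002% and 2.52% in Vector and 1.61%, 1.48% and 1.45% in shEZH2 libraries. MCL1 thus had the highest level per kilobase of these genes in both groups, while the level of BCL2L1 relative to it came closer. The ratio of MCL1 to BCL2L1 per kilobase was 16.3, 18.9 and 14.7 in the Vector and 6.63, 9.02 and 7.64 in the shEZH2 replicates. The ratio of BCL2L1 to BMF was 1.74, 1.32 and 1.85 in the Vector and 6.21, 5.23 and 6.22 in the shEZH2 replicates. In both ratios the groups did not overlap, which follows from the changes already given for BCL2L1 and BMF. The BH3-only genes together summed to 909, 499 and 884 per kilobase in the Vector and 685, 694 and 640 in the shEZH2 replicates, a sum led by PMAIP1 that again places Vector replicate 2 opposite to the other 2 Vector libraries.

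**Figure D4:**
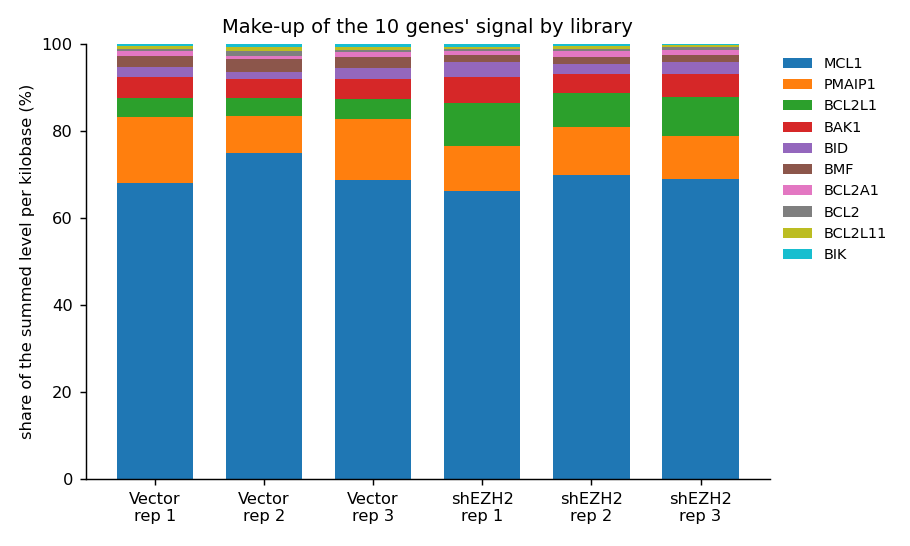
Share of each gene in the summed level per kilobase of the 10 genes (%), 1 bar per library. MCL1 holds 66.3% to 74.9% of every bar, and the BCL2L1 share is 3.96% to 4.66% in Vector and 7.76% to 9.99% in shEZH2 libraries.

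Other apoptosis genes, outer membrane genes, turnover factors and known transcription regulators of the members were described with 7 lists of 70 genes. Of these, 66 were listed in the table and 62 passed the minimum mean. At the threshold, 6 were higher and 2 were lower, beside 7.55% and 7.07% of all genes, and the median log2 fold change was 0.06. Adjusted p-values were under 0.05 for 3 of the 62, beside 4.12% of all genes. Without Vector replicate 2, 4 were higher, 2 lower and 8 had an adjusted p under 0.05, beside 18.9% of all genes in that fit.

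Of 10 other BCL2 family genes tested, BOK alone passed the threshold in limma. With edgeR and DESeq2, BAD, a BH3-only gene, passed as well, its log2 fold change in limma being 0.73 (unadjusted p = 0.0552). BOK, a relative of BAX and BAK, had 5.23, 8.15 and 6.11 normalised read counts in the Vector and 15.2, 10.4 and 26.7 in the shEZH2 replicates, too few for a precise fold change (log2 fold change 1.22, limma adjusted p = 0.161). BCL2L13 had the highest level per length of this list, 407 per kilobase in Vector and 378 in shEZH2 cells. BBC3, which encodes PUMA, had means of 571 ± 172 and 547 ± 147 normalised read counts (SD, n = 3 each).

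Downstream of the mitochondria, 1 of 13 genes for release factors, the apoptosome and caspases was called. CASP6, an executioner caspase, rose from 69.0, 40.7 and 63.1 normalised read counts in the Vector replicates to 110.5, 121 and 111 in the shEZH2 replicates (log2 fold change 1.00, limma adjusted p = 0.0597), and its log2 fold change was 0.78 without Vector replicate 2. CYCS, which encodes cytochrome c, had the highest level per length of the list, with a log2 fold change of 0.54 (adjusted p = 0.281) and 0.20 without Vector replicate 2. Among 5 IAP genes tested, which restrain caspases and signalling from death receptors, BIRC3 alone passed in limma and fell. BIRC3, which encodes cIAP2, had 274, 297 and 251 normalised read counts in the Vector and 76.2, 115 and 101 in the shEZH2 replicates, a log2 fold change of -1.4996 (SE 0.19, limma adjusted p = 0.0118). BIRC6, a large member of the family, was also called lower with edgeR and DESeq2, at -0.80 and -0.83, against -0.71 (unadjusted p = 0.0667) in limma. BIRC5, the survivin gene and the most abundant per length over both groups together, had a log2 fold change of 0.42 (adjusted p = 0.0989).

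In the death receptor pathway, 1 gene was lower and 1 higher of 10 tested. TNFRSF10B, the TRAIL receptor DR5, had 48.1, 53.6 and 56.0 normalised read counts in the Vector and 20.9, 22.4 and 22.0 in the shEZH2 replicates, a log2 fold change of -1.23 (SE 0.22, limma adjusted p = 0.0274). Its groups were well apart and its value without Vector replicate 2 was -1.22. TRADD, an adaptor of the TNF receptor, was called at 0.61 (adjusted p = 0.214) but was 0.37 and not called without Vector replicate 2. TNFRSF1A, the most abundant per length, had a log2 fold change of -0.02. Of 6 outer membrane genes, VDAC3 (0.92) and MTCH2 (0.70) were called higher, with adjusted p-values of 0.0758 and 0.208. VDAC3 encodes a channel of the outer membrane and MTCH2 a protein that recruits the cleaved form of BID. Without Vector replicate 2 their log2 fold changes were 0.65 and 0.33, and only VDAC3 was called. Over all libraries, edgeR likewise called only VDAC3, and DESeq2 called both. TOMM20 was the most abundant of that list per length, at -0.07.

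Of 8 genes for turnover or anchoring of MCL1, BIM and BMF, 0 passed the threshold in limma, where 0 also had an unadjusted p under 0.05, 0 passed with edgeR and 1 with DESeq2, namely HUWE1 as lower. HUWE1, a ubiquitin ligase for MCL1 and the most abundant of them per length, had a log2 fold change of -0.63 (limma adjusted p = 0.356) over all libraries and -0.17 without Vector replicate 2. Of 10 known transcription regulators of the members, E2F1 alone was called in limma. SP1, a factor that binds GC boxes, was called lower as well with edgeR and DESeq2, at -0.59 and -0.62, against -0.55 (unadjusted p = 0.0568) in limma. E2F1, a cell cycle factor, had 810.4, 771 and 777 normalised read counts in the Vector and 1813, 1501 and 1706 in the shEZH2 replicates, a log2 fold change of 1.09 (SE 0.13, limma adjusted p = 0.00984). ATF4, which drives stress-induced PMAIP1 and was the most abundant of these per length, had a log2 fold change of 0.56 (adjusted p = 0.298) and of 0.20 without Vector replicate 2.

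**Figure D5:**
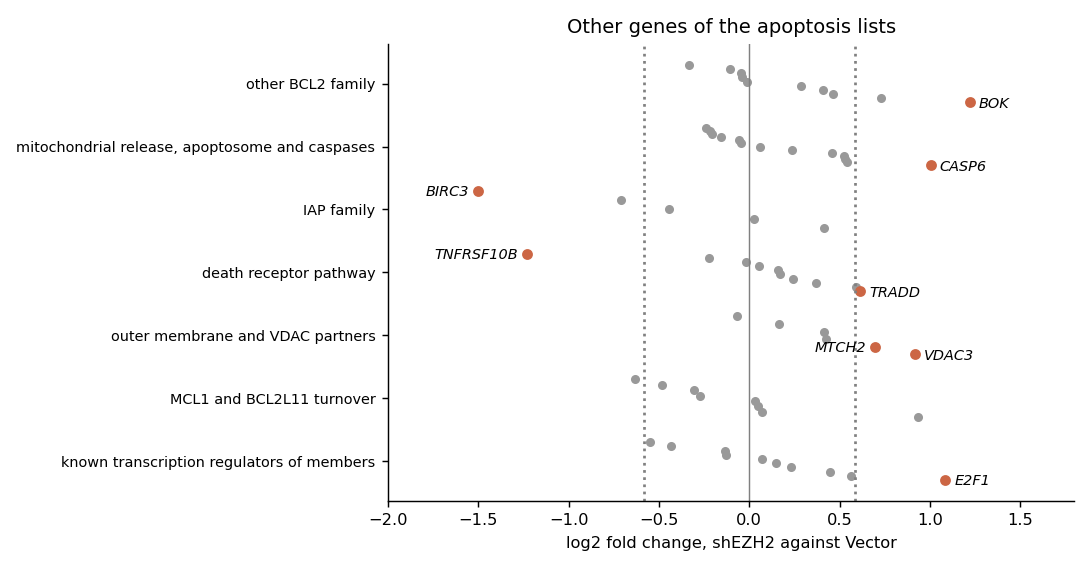
Log2 fold change of shEZH2 against Vector for the 62 tested genes of the 7 lists of other apoptosis genes, partners and regulators, 1 row per list. Orange points are named and passed the threshold (dotted lines mark its fold change), grey points did not. BIRC3 at -1.4996 and TNFRSF10B at -1.23 lie furthest to the left and BOK at 1.22 furthest to the right.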

How the data were processed

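RNA from 3 Vector and 3 shEZH2 libraries of HMV-II cells was selected on poly-T beads and sequenced on an Illumina NovaSeq. Gene-level counting was done by the authors in featureCounts (v1.5.0-p3), and their processing notes also name DESeq2 1.20.0. The deposited values are signal, namely read counts that the authors divided by a size factor per library. Dividing a library by its smallest value above 0 returned whole reads for 100% of genes, to within 0.001 reads. Columns holding the authors' own test (fold changes and p-values) were not used, and 0 columns of other samples were present. The aligner and strandedness are not given in the sources used here. The processing notes name hg19, but RefSeq starts on GRCh38.p14 lay 13 to 1536 bases from the table's gene boundaries for the 8 members matched, so coordinates are given as GRCh38. No upstream sequence of MCL1 or BIK was used.

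Groups were compared with limma 3.58.1 (mean-variance trend, no replicate block) on log2(normalised count + 1) over genes with a mean of at least 10, with Benjamini-Hochberg adjustment over all of them. Fold changes on this scale understate changes of low genes. Where a symbol had several rows, the one with more counts was used. Named were all members, EZH2, list genes past the threshold (at most 3 per direction), and the most abundant gene per length of each list. BAX, BBC3, BAD, BIRC6, SP1, MITF and MIR4435-2HG were named outside this rule, after their values were seen. The members and lists were chosen with earlier results of these data known. Alternatives were edgeR 4.0.16 and DESeq2 1.42.0 on the recovered counts, TMM scaling, other pseudocounts (0.1, 5), a minimum mean of 50 or none, a replicate block, removal of the length trend, array weights, and each library left out. The fits were tested on simulated data with the same dispersion in every library, no outlying library and no length trend. That check does not extend to a library such as Vector replicate 2. R 4.3.3, Python 3.11.15 and matplotlib 3.10.9 were used.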

Additional observations from a re-analysis of the deposited data

How the results depend on the processing

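BCL2L1, BMF and EZH2 kept their direction and passed the unadjusted threshold under all 16 alternatives, with log2 fold changes from 1.00 to 1.31, from -0.75 to -0.64 and from -1.19 to -0.96. The members called higher numbered 1 to 2 with each library left out, BID joining without Vector replicate 3, and the members called lower rose to 2 with array weights, when BIK joined. Of the 10 members, 2 had an adjusted p under 0.05 in the fit reported, 1 with no minimum, 1 with the replicate block (BCL2L1, BMF then being at 0.0647), 5 with array weights and 0 to 3 with each library left out. Of all genes tested, 4.12% had such a p in the fit reported, 1.53% with no minimum, 2.78% with the block, 46.7% with array weights and 0.0262% to 18.9% with a library left out. The 6 higher genes of the other lists became 3 with a mean of at least 50, 3 with the length trend removed and 3 to 10 with a library left out. The 2 lower became 4 with edgeR, 5 with DESeq2, 1 with a mean of at least 50 and 2 to 4 with a library left out. Reversed directions were confined to members that were not called. BCL2 was 0.19 with array weights and ran from -0.40 to 0.022 with a library left out, MCL1 was -0.018 with the length trend removed and ran from -0.0056 to 0.12, PMAIP1 ran from -0.52 to 0.079, and BIK from -0.41 to 0.038. BIK was not tested with a mean of at least 50. Fewer genes or libraries enter some of these fits by construction, and beyond that the cause was not tested. The deviations of same-numbered libraries correlated at 0.28, 0.22 and -0.11 over genes, and those of differently numbered libraries at -0.31 to 0.25. Since Vector replicate 2 stood apart, these values cannot decide whether the replicate numbers pair the libraries. BIK, BCL2A1 and BOK rest on few reads, a limit whose part was not tested, and 3 libraries per group limit every exact test to p = 0.1.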
